A study of Rattus norvegicus with 8 samples.

Results

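Expression of 9 genes of the p53 response and of the mitochondrial route to apoptosis was followed in cultured rat neurons: Cdkn1a, Gadd45a, Ccng1, Mdm2, Bax, Bbc3, Bcl2l11, Bcl2 and Bcl2l1. They were taken as a set of known p53 targets and BCL2 proteins, through every array probe whose RefSeq accession maps to one of these symbols, which gave 14 of 30367 probes and 9 of 26903 genes and accessions on the array. Of the 14 probes, 13 probes of 8 genes were bright enough to be tested, and the Bcl2l11 probe was not. No member probe differed from vehicle after any treatment once p-values were adjusted over all probes tested.

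The cells were primary neurons of the cortex and hippocampus of Sprague Dawley embryos at embryonic day 18, grown for 7 days in vitro before treatment. There were 4 groups of 2 arrays: ADDL first and CAT-SKL after it (ADDL+CAT-SKL), the reverse order (CAT-SKL+ADDL), CAT-SKL alone and ADDL alone, with every agent given at 1 µM for 24 h. ADDL are soluble assemblies of amyloid-beta, the peptide that builds up in brains with Alzheimer's disease, and CAT-SKL is a catalase, an enzyme that removes hydrogen peroxide, carrying a signal for import into peroxisomes. The study asked how ADDL change gene expression in the presence and absence of the antioxidant. Each array set treated RNA (Cy5) against RNA of vehicle-treated neurons (Cy3, a control that the design text also calls untreated), so the values below are log2 ratios of treated over vehicle, and above 0 means more in the treated culture. The names of the combined groups were read as the order in which the agents were given. The sequential treatments lasted longer than the single ones and lay in another row of the slide, so the sequence of agents, its duration and the position on the slide cannot be told apart.

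The 2 CAT-SKL+ADDL arrays are labelled as biological replicates, but over 13221 probes they differed by no more than duplicate spots did (SD of the difference 0.0855, against 0.0848 from spot noise). The other 27 pairs of arrays differed by 1.35 to 2.42 times the spot noise. These 2 arrays were therefore counted as 1 sample, which leaves 7 samples, and member results whose call changes when all 8 are counted are given with both. The labels call the replicates biological without saying from which animals or cultures they came, so a p-value reflects how far these samples lie apart, which may be technical, and having so few arrays limits precision. Of the neuronal markers on the array, 15 of 15 were well above background in vehicle on all 8 arrays, as were 11 of 11 astrocyte markers. So were 10 of 11 oligodendrocyte, 8 of 11 microglia and 7 of 10 endothelial and fibroblast markers. Of all probes, 71.5% to 77.4% were well above background in vehicle on a given array. Detection alone therefore does not settle which cells were present. In bulk RNA of this kind, fewer cells of a type and less RNA per cell cannot be told apart.

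The transcription factor p53 is kept low by MDM2, a ubiquitin ligase that p53 itself induces, and is stabilised by DNA damage and other stress. It then switches on genes of cell-cycle arrest and repair, such as Cdkn1a and Gadd45a, and genes of the death programme, such as Bax and Bbc3. In the mitochondrial route, BH3-only proteins (the products of Bbc3 and Bcl2l11) free the pore-forming protein BAX from the protective proteins encoded by Bcl2 and Bcl2l1. In neurons that no longer divide, this balance decides over survival during development and injury, and transcription of Bbc3 and Bcl2l11 is a known step in neuronal death.

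The promoters in which a p53 motif was found are shown first, because p53 binding is what the target genes of the set have in common. RefSeq (GRCr8 assembly) gave 10 windows for 7 of the 9 genes, each from 250 bases before to 50 bases after a start site; the promoters of Bax and Bbc3 were not analysed here. The p53 half-site, searched on both strands under its name alone because it needs letters other than the 4 bases, was present in 3 of the 10 windows, those of Cdkn1a, Gadd45a and Ccng1. It was present in 7.98% of all 33469 windows of this length. Capitals mark the matched half-site, which starts 201 bases before the start site in Cdkn1a (chr20:7150682-7150981, plus strand), 48 bases before it in Gadd45a (chr4:97486750-97487049, minus strand) and 232 bases before it in Ccng1 (chr10:25684827-25685126, minus strand). A match describes letters in the window and is no evidence of binding. All 3 windows are in GRCr8, written 5′ to 3′ on the strand of the gene.
Cdkn1a: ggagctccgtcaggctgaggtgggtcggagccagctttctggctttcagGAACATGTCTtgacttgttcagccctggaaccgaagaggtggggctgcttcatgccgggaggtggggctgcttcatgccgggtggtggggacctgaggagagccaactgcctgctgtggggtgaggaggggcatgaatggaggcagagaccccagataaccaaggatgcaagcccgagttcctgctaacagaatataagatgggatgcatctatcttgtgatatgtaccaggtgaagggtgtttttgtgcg
Gadd45a: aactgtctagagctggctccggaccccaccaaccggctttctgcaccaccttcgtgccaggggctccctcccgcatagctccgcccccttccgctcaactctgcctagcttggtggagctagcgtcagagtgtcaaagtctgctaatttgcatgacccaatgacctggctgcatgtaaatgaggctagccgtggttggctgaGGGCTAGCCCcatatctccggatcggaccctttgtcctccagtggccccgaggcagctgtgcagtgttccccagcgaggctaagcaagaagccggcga
Ccng1: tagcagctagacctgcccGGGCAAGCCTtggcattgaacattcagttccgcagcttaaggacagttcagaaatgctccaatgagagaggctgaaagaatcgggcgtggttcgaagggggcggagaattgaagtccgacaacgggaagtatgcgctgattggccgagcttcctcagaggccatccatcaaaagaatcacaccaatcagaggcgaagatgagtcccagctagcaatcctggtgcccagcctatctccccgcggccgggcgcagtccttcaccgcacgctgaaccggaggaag

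Against vehicle, none of the 13 member probes passed an adjusted p of 0.05 (limma, Benjamini-Hochberg over 25296 probes) after ADDL+CAT-SKL, CAT-SKL+ADDL, CAT-SKL or ADDL. Over all probes tested, 0.296% passed after ADDL+CAT-SKL, 0% after CAT-SKL+ADDL, 2.19% after CAT-SKL and 0% after ADDL. At an unadjusted p of 0.05, member probes that differed from vehicle numbered 4 after ADDL+CAT-SKL (3 higher, 1 lower), 1 after CAT-SKL+ADDL (lower), 2 after CAT-SKL (both lower) and 3 after ADDL (2 higher, 1 lower). Over all probes that share was 17.1% after ADDL+CAT-SKL (7.72% higher, 9.41% lower), 11.1% after CAT-SKL+ADDL (5.09% higher, 6.02% lower), 20.9% after CAT-SKL (9.25% higher, 11.6% lower) and 18.7% after ADDL (9.3% higher, 9.4% lower). The counts of 1, 2 and 3 among 13 probes are near these shares, and the 4 after ADDL+CAT-SKL include 2 probes of the same gene, Bcl2l1. In this fit no 95% interval of a member probe reached further from vehicle than 1.39-fold after ADDL+CAT-SKL, 1.52-fold after CAT-SKL+ADDL, 1.38-fold after CAT-SKL and 1.39-fold after ADDL. These bounds hold for this processing only. Under the alternatives, the log2 value of the dim Bcl2 probe went as low as -0.51 after CAT-SKL, beyond the bound given for that treatment. It went as low as -0.58 after CAT-SKL+ADDL, and that of the dim Bcl2l1 probe A_44_P548065 as low as -0.48 after ADDL. These values lay inside the bounds of their treatments. All comparisons with vehicle are ratios against 0 that may share vehicle RNA, do not include how far vehicle cultures vary, and, with no dye swap, hold any dye effect of a probe.

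**Figure D1:**
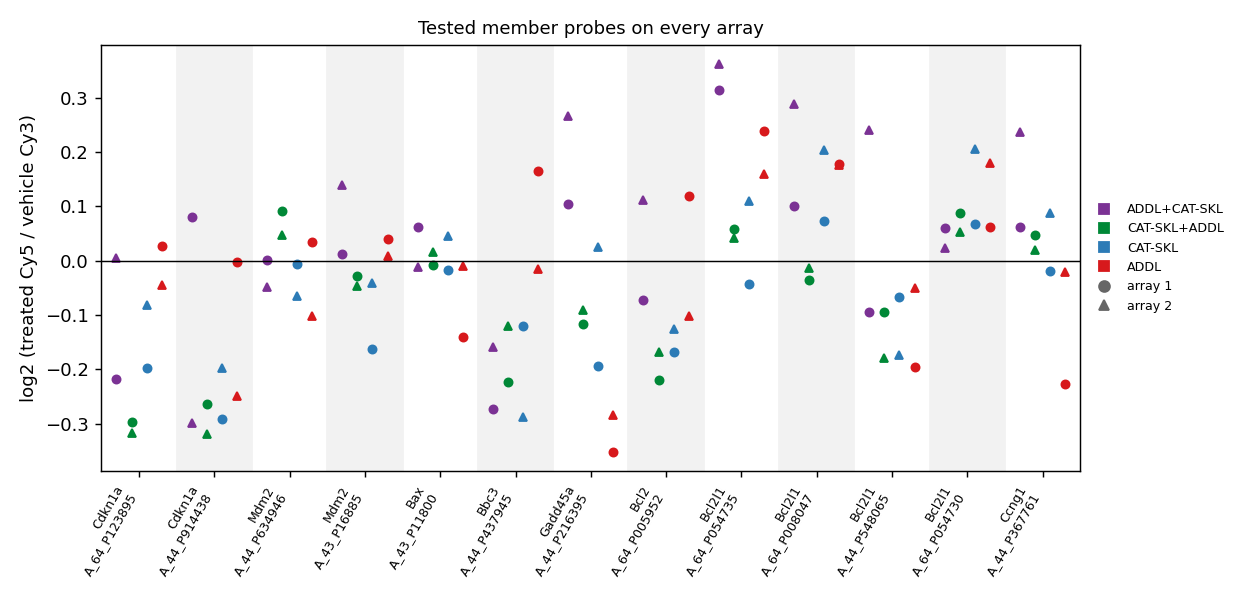
Log2 ratio of treated over vehicle (y axis) for tested member probes of 8 genes on every array, with the treatments side by side. Circles are array 1 and triangles array 2. The Gadd45a arrays lie at 0.10 and 0.27 after ADDL+CAT-SKL and at -0.35 and -0.28 after ADDL. The Bax arrays of all 4 treatments lie between -0.14 and 0.06.

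Gadd45a, whose product binds PCNA and p21 and takes part in arrest and DNA repair, had the widest spread between treatments among the brightest probes of the set. Its log2 ratio was 0.10 and 0.27 after ADDL+CAT-SKL, -0.12 and -0.09 after CAT-SKL+ADDL, -0.19 and 0.02 after CAT-SKL, and -0.35 and -0.28 after ADDL. Both arrays of ADDL+CAT-SKL lay above vehicle, and both arrays of ADDL lay below all 6 other arrays. In the normalised intensities behind these ratios, which were not scaled between arrays, the ADDL cultures gave 266 and 280, against 340 and 341 in the vehicle channel of the same arrays. ADDL+CAT-SKL gave 442 and 384, against 412 and 321 in vehicle. The difference from vehicle was 0.19 ± 0.07 (SE) after ADDL+CAT-SKL (adjusted p = 0.234, limma) and -0.32 ± 0.07 after ADDL (95% interval -0.48 to -0.16, unadjusted p = 0.00194, adjusted p = 0.0866, limma). With all 8 arrays counted as samples, the ADDL value passed (adjusted p = 0.0332, limma), in a fit in which 4.02% of all probes passed.

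Set directly against each other, ADDL+CAT-SKL and ADDL differed in Gadd45a by 0.50 ± 0.10 on the log2 scale (95% interval 0.27 to 0.73), a fold of 1.42. This was the 19th smallest of 25296 p-values in that comparison (unadjusted p = 0.000972), yet the adjusted p was 0.584 (limma), and 0% of all probes passed there. The value was 0.42 to 0.58 when any 1 array was left out. CAT-SKL alone differed from ADDL in Gadd45a by 0.23 (unadjusted p = 0.0470, adjusted p = 0.580, limma), CAT-SKL+ADDL from ADDL by 0.21 (adjusted p = 1.00, limma), and ADDL+CAT-SKL from CAT-SKL+ADDL by 0.29 (unadjusted p = 0.0451, adjusted p = 0.870, limma). The comparisons with ADDL share its 2 arrays. Astrocyte markers moved across the same arrays: the median log2 ratio of the 11 markers was 0.29 and -0.02 after ADDL+CAT-SKL, 0.58 and 0.52 after CAT-SKL+ADDL, 0.82 and 0.20 after CAT-SKL, and 0.46 and 0.81 after ADDL. At an unadjusted p of 0.05, 7 of the 11 were lower in ADDL+CAT-SKL than in ADDL, against 4.48% of all probes. Their part in the Gadd45a values was not tested.

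**Figure D2:**
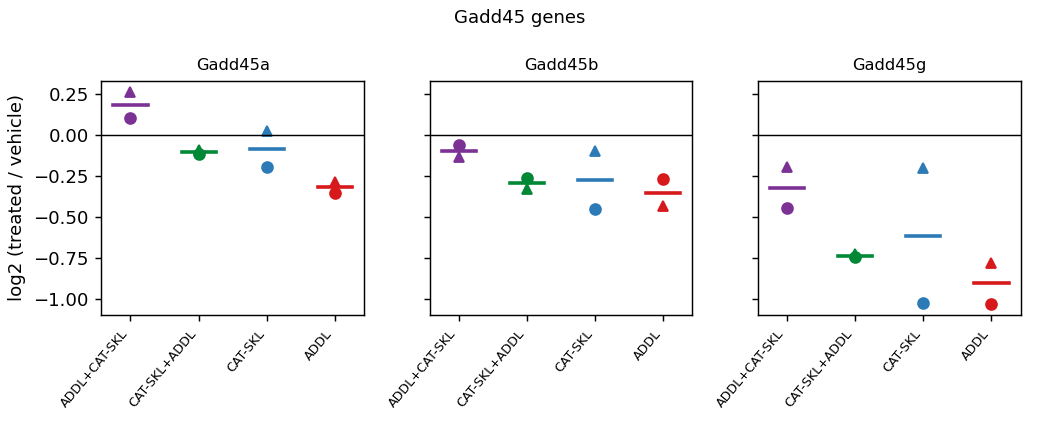
Log2 ratio of treated over vehicle (y axis) for Gadd45a and its paralogues Gadd45b and Gadd45g by treatment (x axis), with circles for array 1, triangles for array 2 and bars for the mean. After ADDL the means are -0.32 for Gadd45a, -0.35 for Gadd45b and -0.91 for Gadd45g, and after ADDL+CAT-SKL they are 0.19, -0.10 and -0.32.

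The paralogues encode related stress-responsive proteins. Gadd45g had -0.32 after ADDL+CAT-SKL (adjusted p = 0.376), -0.74 after CAT-SKL+ADDL (adjusted p = 0.292), -0.61 after CAT-SKL (adjusted p = 0.0884) and -0.91 ± 0.17 after ADDL (adjusted p = 0.0784, limma). After CAT-SKL its arrays were far apart, at -1.03 and -0.20, and ADDL+CAT-SKL differed from ADDL by 0.58 ± 0.23 (unadjusted p = 0.0374, adjusted p = 0.596, limma). Gadd45b, included after its values had been seen to complete the family, had -0.10, -0.29, -0.27 and -0.35 in the same order of treatments, with an adjusted p of 0.101 after ADDL (limma). None of the 3 genes passed against vehicle. The mean was lowest after ADDL in all 3, but Gadd45a alone had a mean above vehicle after ADDL+CAT-SKL.

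Cdkn1a encodes p21, the inhibitor of cyclin-dependent kinases through which p53 arrests the cell cycle. Its brightest probe (A_64_P123895) had log2 ratios of -0.22 and 0.0045 after ADDL+CAT-SKL, -0.30 and -0.32 after CAT-SKL+ADDL, -0.20 and -0.08 after CAT-SKL, and 0.03 and -0.05 after ADDL. The CAT-SKL+ADDL arrays, which count as 1 sample, were the lowest, and the ADDL arrays lay on both sides of vehicle. CAT-SKL+ADDL differed from vehicle by -0.31 ± 0.10 (95% interval -0.53 to -0.08, unadjusted p = 0.0128, adjusted p = 0.288, limma). With its 2 arrays counted separately the adjusted p was 0.0169 (limma), in a fit in which 9.98% of all probes passed, and with ratios centred on each array's median in place of loess the value was -0.09. The treated intensities of these arrays were 4648 and 4086, and those of their vehicle channel were 5714 and 5090, the 2 highest vehicle intensities of the probe. On the other 6 arrays the treated channel lay between 3452 and 4265 and the vehicle channel between 3563 and 4959. The median Cy5 signal of the CAT-SKL+ADDL arrays was 123 and 124, against 87.5 to 127.5 on the other arrays. Their median Cy3 signal was 111.5 and 108, against 104 to 110. The intensities were not scaled between arrays, so their order is a description only. The part of the vehicle channel in these ratios was not tested.

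The other Cdkn1a probe (A_44_P914438, 1 spot per array) gave 0.08 and -0.30 after ADDL+CAT-SKL, -0.26 and -0.32 after CAT-SKL+ADDL, -0.29 and -0.20 after CAT-SKL, and -0.002 and -0.25 after ADDL. On this probe 7 of 8 ratios were below 0, against 6 of 8 for the brightest probe. After CAT-SKL it differed from vehicle by -0.24 ± 0.10 (unadjusted p = 0.0343, adjusted p = 0.200, limma), where the brightest probe had -0.14 ± 0.07 (adjusted p = 0.294, limma). Over the 7 samples the probes of this gene were close to unrelated (Pearson r = 0.0828, a description over ratios that share vehicle). Between treatments, CAT-SKL+ADDL differed from ADDL by -0.30 on the brightest probe (unadjusted p = 0.0358) and by -0.17 on the other (unadjusted p = 0.346), with adjusted p = 1.00 for both (limma). In this fit the upper ends of the 95% intervals of the brightest probe were 0.05 after ADDL+CAT-SKL, -0.08 after CAT-SKL+ADDL, 0.02 after CAT-SKL and 0.15 after ADDL. They depend on the processing: with median centring the value after CAT-SKL was 0.0151 ± 0.0904. They also do not include how far vehicle cultures vary.

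Ccng1 encodes cyclin G1, a p53 target that brings a phosphatase to MDM2. Its log2 ratio was 0.06 and 0.24 after ADDL+CAT-SKL, 0.05 and 0.02 after CAT-SKL+ADDL, -0.02 and 0.09 after CAT-SKL, and -0.23 and -0.02 after ADDL. As for Gadd45a, the ADDL arrays were the lowest in mean and the ADDL+CAT-SKL arrays the highest, but here ADDL 2 and CAT-SKL 1 lay side by side. The difference from vehicle was 0.15 ± 0.07 after ADDL+CAT-SKL (adjusted p = 0.345) and -0.12 ± 0.07 after ADDL (adjusted p = 0.405, limma). ADDL+CAT-SKL differed from ADDL by 0.27 ± 0.10 (unadjusted p = 0.0275, adjusted p = 0.584, limma). The treated intensity after ADDL was 1393 and 1581, against 1630 and 1603 in the vehicle channel of those arrays, so nearly all of the difference lay on the first array.

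Mdm2, the p53 target that closes the feedback loop, stayed near vehicle on both of its probes. The brightest (A_44_P634946) ranged over the 8 arrays from -0.10 in ADDL 2 to 0.09 in CAT-SKL+ADDL 1, and the other (A_43_P16885) from -0.16 in CAT-SKL 1 to 0.14 in ADDL+CAT-SKL 2. The probes did not run together over the 7 samples (Pearson r = -0.188, a description). On the brightest probe the difference from vehicle was -0.02 after ADDL+CAT-SKL (95% interval -0.16 to 0.11), 0.07 after CAT-SKL+ADDL (-0.12 to 0.26), -0.03 after CAT-SKL (-0.17 to 0.10) and -0.03 after ADDL (-0.17 to 0.10). On the other probe the 95% intervals were -0.06 to 0.21 after ADDL+CAT-SKL, -0.23 to 0.16 after CAT-SKL+ADDL, -0.24 to 0.04 after CAT-SKL and -0.11 to 0.16 after ADDL. A change of Mdm2 within these intervals is not excluded.

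Bax, the pore-forming effector of mitochondrial apoptosis, was measured with 10 spots per array and lay near vehicle. Its log2 ratio was 0.06 and -0.01 after ADDL+CAT-SKL, -0.01 and 0.02 after CAT-SKL+ADDL, -0.02 and 0.05 after CAT-SKL, and -0.14 and -0.01 after ADDL. The arrays of ADDL+CAT-SKL, CAT-SKL+ADDL and CAT-SKL overlapped, ADDL 2 lay beside them, and ADDL 1 was the only array beyond 0.10 from vehicle. The difference from vehicle was 0.03 after ADDL+CAT-SKL (95% interval -0.11 to 0.16), 0.0041 after CAT-SKL+ADDL (-0.18 to 0.19), 0.01 after CAT-SKL (-0.12 to 0.15) and -0.07 after ADDL (-0.21 to 0.06). The upper end of the last interval is a 1.04-fold rise of Bax after ADDL. It does not include how far vehicle cultures vary, so it is no firm limit.

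Bbc3 encodes PUMA, a BH3-only protein that p53 induces and that is needed for several forms of neuronal death. Its log2 ratio was -0.27 and -0.16 after ADDL+CAT-SKL, -0.22 and -0.12 after CAT-SKL+ADDL, -0.12 and -0.29 after CAT-SKL, and 0.16 and -0.02 after ADDL. All 6 arrays that had received CAT-SKL lay below both ADDL arrays. Against vehicle the differences were -0.22 ± 0.07 after ADDL+CAT-SKL (unadjusted p = 0.0144, adjusted p = 0.176), -0.17 ± 0.10 after CAT-SKL+ADDL (adjusted p = 0.590), -0.20 ± 0.07 after CAT-SKL (unadjusted p = 0.0186, adjusted p = 0.149) and 0.07 ± 0.07 after ADDL (adjusted p = 0.629), by limma. ADDL+CAT-SKL differed from ADDL by -0.29 ± 0.10 (unadjusted p = 0.0182, adjusted p = 0.584), CAT-SKL+ADDL from ADDL by -0.25 ± 0.12 (unadjusted p = 0.0749, adjusted p = 1.00) and CAT-SKL from ADDL by -0.28 ± 0.10 (unadjusted p = 0.0219, adjusted p = 0.554), again by limma. These 3 comparisons share the ADDL arrays. With ratios centred on each array's median in place of loess, the differences from vehicle were -0.13 after ADDL+CAT-SKL, 0.04 after CAT-SKL+ADDL and -0.05 after CAT-SKL.

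Bcl2l11, which encodes the BH3-only protein BIM, could not be followed. Its probe was well above background on 1 of 8 arrays in the treated channel and on 1 of 8 in vehicle, so no fold is given.

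**Figure D3:**
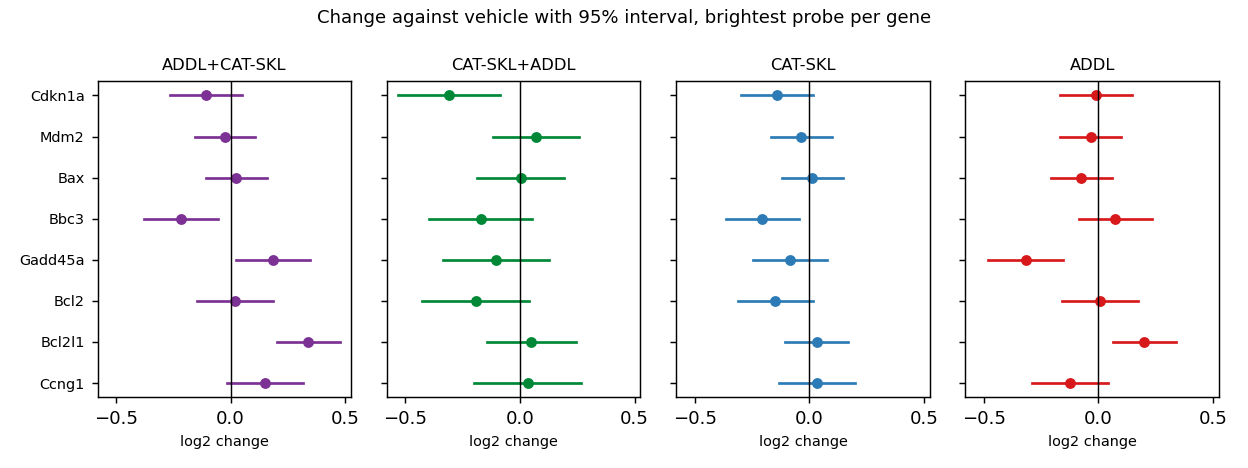
Difference from vehicle (log2, points) with its 95% interval from limma (bars) for tested member probes, by treatment. The interval of the Bcl2l1 probe A_64_P054735 after ADDL+CAT-SKL runs from 0.20 to 0.48, that of Gadd45a after ADDL from -0.48 to -0.16, and those of Bax hold 0 after all 4 treatments.

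Bcl2l1 encodes BCL-xL, the main protective BCL2 protein of mature neurons, and is read by 4 probes that name 3 transcripts. On the brightest (A_64_P054735, for NM_001033670) the log2 ratio was 0.31 and 0.36 after ADDL+CAT-SKL, 0.06 and 0.04 after CAT-SKL+ADDL, -0.04 and 0.11 after CAT-SKL, and 0.24 and 0.16 after ADDL. The ADDL+CAT-SKL arrays were the highest, the ADDL arrays came next, and neither overlapped the remaining arrays. Treated intensity after ADDL+CAT-SKL was 10508 and 8990, against 8453 and 7073 in vehicle. The difference from vehicle was 0.34 ± 0.06 after ADDL+CAT-SKL (95% interval 0.20 to 0.48, a fold of 1.26), with the 170th smallest p of 25296 (unadjusted p = 0.000451, adjusted p = 0.0668, limma). After ADDL it was 0.20 ± 0.06 (adjusted p = 0.140, limma). With all 8 arrays counted as samples the value after ADDL+CAT-SKL passed (adjusted p = 0.0192, limma), in a fit in which 3.49% of all probes passed, and it also passed with median centring (0.45, adjusted p = 0.0191, where 1.2% of all probes passed).

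The other probes of Bcl2l1 gave different values. A_64_P008047, a single spot for the same transcript, had 0.10 and 0.29 after ADDL+CAT-SKL, -0.03 and -0.01 after CAT-SKL+ADDL, 0.07 and 0.20 after CAT-SKL, and 0.18 and 0.18 after ADDL. Its differences from vehicle were 0.19 ± 0.06 after ADDL+CAT-SKL (unadjusted p = 0.0167, adjusted p = 0.187) and 0.18 ± 0.06 after ADDL (unadjusted p = 0.0250, adjusted p = 0.198), by limma. A_64_P054730 (NM_001033672) was above 0 on all 8 arrays, from 0.02 in ADDL+CAT-SKL 2 to 0.21 in CAT-SKL 2. A_44_P548065 (NM_031535) was below 0 on 7 of 8 arrays, from -0.20 in ADDL 1 to 0.24 in ADDL+CAT-SKL 2. The probes of NM_001033672 and NM_031535 differed in sign after CAT-SKL+ADDL (0.07 and -0.14), CAT-SKL (0.14 and -0.12) and ADDL (0.12 and -0.12), and none of these values passed. The probes of NM_001033670 correlated over the 7 samples at r = 0.626, while the other pairs of Bcl2l1 probes ranged from -0.417 to 0.532, as a description over ratios that share vehicle. ADDL+CAT-SKL differed from CAT-SKL+ADDL on the brightest probe by 0.29 ± 0.10 (unadjusted p = 0.0229, adjusted p = 0.870, limma), and from ADDL by 0.14 ± 0.08 (adjusted p = 0.674, limma).

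**Figure D4:**
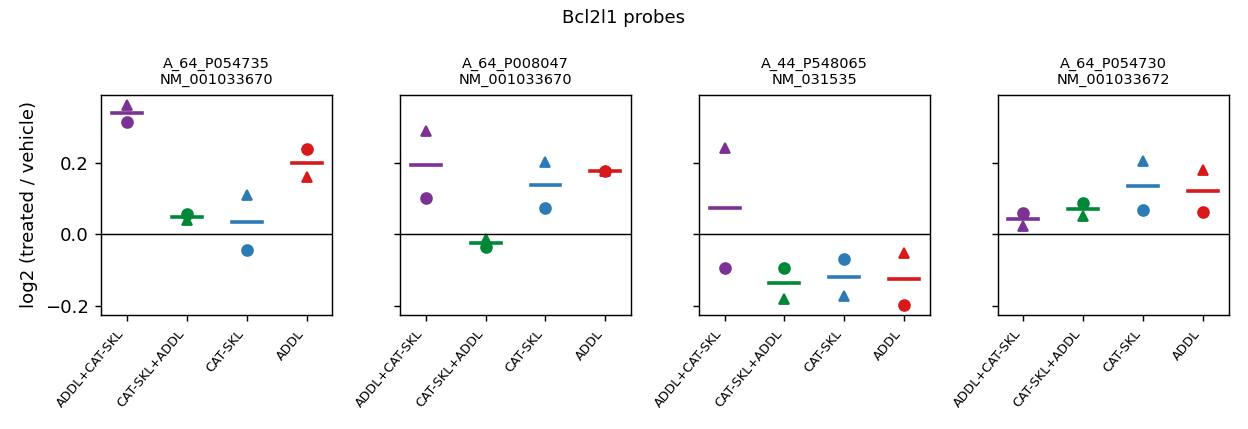
Log2 ratio of treated over vehicle (y axis) for the 4 Bcl2l1 probes, each with its RefSeq transcript, by treatment (x axis); circles are array 1, triangles array 2 and bars the mean. After ADDL+CAT-SKL the means are 0.34 and 0.19 on the probes of NM_001033670, 0.07 on that of NM_031535 and 0.04 on that of NM_001033672. The probes of NM_031535 and NM_001033672 were dim.

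Bcl2, the founding protective member of the family, gave -0.07 and 0.11 after ADDL+CAT-SKL, -0.22 and -0.17 after CAT-SKL+ADDL, -0.17 and -0.13 after CAT-SKL, and 0.12 and -0.10 after ADDL. The arrays with CAT-SKL given alone or first were all below 0, and those with ADDL given alone or first lay on both sides. Against vehicle the differences were -0.19 ± 0.10 after CAT-SKL+ADDL (adjusted p = 0.547) and -0.15 ± 0.07 after CAT-SKL (adjusted p = 0.294), and 0.02 and 0.0078 after ADDL+CAT-SKL and ADDL (adjusted p = 0.928 and 0.968, limma). The probe was dim, with vehicle intensities between 85.8 and 100.4, and its duplicate spots had a median SD of 0.110 on the log2 scale, the largest among the member probes with more than 1 spot.

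Over the 13 probes, the median log2 ratio was 0.04 after ADDL+CAT-SKL, -0.04 after CAT-SKL+ADDL, -0.08 after CAT-SKL and -0.0097 after ADDL, with the median of all probes between -0.0055 and -0.0027. The median size without sign was 0.106 after ADDL+CAT-SKL, 0.0696 after CAT-SKL+ADDL, 0.120 after CAT-SKL and 0.121 after ADDL. Over all probes it was 0.0679, 0.0762, 0.0732 and 0.0702. Both arrays of a treatment lay on the same side of vehicle for 7 of the 13 probes after ADDL+CAT-SKL, 12 after CAT-SKL+ADDL, 9 after CAT-SKL and 9 after ADDL. Over all probes that share was 61.6%, 74.8%, 66.1% and 63.3%. Between treatments, no member passed in any of the 4 comparisons, and 0% of all probes passed in each. The unadjusted p was below 0.05 for 3 member probes between ADDL+CAT-SKL and ADDL (8.29% of all probes), 2 between ADDL+CAT-SKL and CAT-SKL+ADDL (5.59%), 1 between CAT-SKL+ADDL and ADDL (3.8%) and 2 between CAT-SKL and ADDL (8.55%). The arrays of the paired treatments did not overlap for 5, 8, 11 and 7 of the 13 probes in these 4 comparisons, against 39.4%, 49.4%, 47% and 39.8% of all probes. The comparisons share arrays, and each reads the ADDL or CAT-SKL+ADDL arrays more than once.

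Other genes of the p53 pathway also stayed short of the threshold. Of 14 listed regulators and partners of p53, 9 were tested and none passed in any comparison with vehicle. Among those reported here, the smallest p-values belonged to Hipk2, a kinase of p53 (-0.17 after ADDL+CAT-SKL, adjusted p = 0.175), to its inhibitor Mdm4 (-0.20 after ADDL, adjusted p = 0.202) and to the family member Tp63 (0.16 after ADDL, adjusted p = 0.241, with 0.04 on a further probe). Of 33 other p53 targets, 22 were tested and again none passed. Their median log2 ratio was 0.03 after ADDL+CAT-SKL, -0.04 after CAT-SKL+ADDL, -0.06 after CAT-SKL and -0.03 after ADDL. Igfbp3, which binds insulin-like growth factors, had the smallest p (-0.43 ± 0.07 after ADDL+CAT-SKL, arrays at -0.45 and -0.41, adjusted p = 0.0581, limma). It was followed by the antiproliferative gene Btg2 (-0.26 after ADDL+CAT-SKL, adjusted p = 0.113), the stress-responsive kinase Plk3 (-0.31 after ADDL, arrays at -0.49 and -0.13, adjusted p = 0.124) and Tigar, which lowers glycolysis (0.21 after ADDL+CAT-SKL, adjusted p = 0.182).

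In the wider BCL2 family, 15 of 17 listed genes were tested and 1 passed, a fall of Bok after CAT-SKL, where 1.55% of all probes fell. Bok encodes a BAX-related effector; its probe gave -0.26 and -0.25 after CAT-SKL (-0.25 ± 0.05, adjusted p = 0.0487, limma). The call did not hold when any 1 CAT-SKL, ADDL or ADDL+CAT-SKL array was left out (adjusted p between 0.0723 and 0.461, limma), nor with median centring (-0.10, adjusted p = 0.578) or the deposited ratios (-0.20, adjusted p = 0.229). With the deposited ratios 0% of all probes passed after CAT-SKL, so no call could have held there. Bok had -0.18 after ADDL+CAT-SKL, -0.44 after CAT-SKL+ADDL and -0.14 after ADDL, none past the threshold, and a further Bok probe had -0.13 after CAT-SKL (adjusted p = 0.466, limma). Bnip3 and Bnip3l, receptors on the outer mitochondrial membrane for the removal of mitochondria, came closest after ADDL, with 0.39 ± 0.06 and 0.32 ± 0.06 (adjusted p = 0.0784 each, limma). Bcl2l2, which encodes the protective protein BCL-w, had 0.31 after ADDL+CAT-SKL (arrays at 0.16 and 0.47, adjusted p = 0.109). Among caspases, the apoptosome and their regulators, 23 of 26 listed genes were tested and none passed. The smallest p-values were those of the nuclease gene Endog (-0.20 after ADDL+CAT-SKL, adjusted p = 0.133), the apoptosome scaffold Apaf1 (0.26 after CAT-SKL, adjusted p = 0.0984, with -0.41 on a further probe), the caspase inhibitor antagonist Diablo (0.20 after ADDL, adjusted p = 0.168) and Cflar, an inhibitor of death receptor signalling (-0.24 after CAT-SKL, adjusted p = 0.158), all by limma. The Cflar arrays lay at -0.44 and -0.05 and a further Cflar probe had -0.04, and the Apaf1 arrays lay at 0.39 and 0.12. Apaf1 thus had opposite signs on its probes.

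Genes of the JNK and FOXO routes to neuronal death, which can induce Bbc3 and Bcl2l11 without p53, were the next list. Of 19 listed genes 16 were tested, and their median log2 ratio was -0.03 after ADDL+CAT-SKL, -0.19 after CAT-SKL+ADDL, -0.14 after CAT-SKL and -0.05 after ADDL. At an unadjusted p of 0.05 after CAT-SKL, 7 of the 16 were lower and 1 was higher, against 11.6% and 9.25% of all probes. After CAT-SKL+ADDL 7 were also lower and 1 higher (6.02% and 5.09% of all probes). After ADDL 5 were lower and 3 higher (9.4% and 9.3%), and after ADDL+CAT-SKL 1 and 1 (9.41% and 7.72%). Trib3 was the 1 gene that passed, after CAT-SKL, where 1.55% of all probes fell. This pseudokinase of the endoplasmic reticulum stress response fell after CAT-SKL (-0.28 ± 0.05, arrays at -0.28 and -0.29, adjusted p = 0.0442, limma). It had -0.21 after ADDL+CAT-SKL, -0.37 after CAT-SKL+ADDL and -0.05 after ADDL. Mapk9, which encodes JNK2, had -0.49 ± 0.10 after CAT-SKL with arrays at -0.71 and -0.27 (adjusted p = 0.0527, limma), and its target Jun had -0.42 ± 0.09 with arrays at -0.61 and -0.24 (adjusted p = 0.0571, limma). Of 15 listed cyclins, cyclin-dependent kinases and their inhibitors other than Cdkn1a, 14 were tested and 1 passed, a rise of the cyclin D1 gene Ccnd1 after CAT-SKL, where 0.636% of all probes rose (0.35 ± 0.06, arrays at 0.43 and 0.26, adjusted p = 0.0416, limma). Cdkn1c, which encodes the p21-related inhibitor p57, had on its brightest probe -0.02 after ADDL+CAT-SKL, 1.24 ± 0.21 after CAT-SKL+ADDL (adjusted p = 0.203), 0.73 ± 0.15 after CAT-SKL (arrays at 1.11 and 0.35, adjusted p = 0.0501) and 0.50 after ADDL (adjusted p = 0.137, limma). A further Cdkn1c probe had -0.02, 0.59, 0.31 and 0.27 in the same order of treatments (adjusted p between 0.228 and 0.952, limma). Ccne1 had 0.25 after ADDL (adjusted p = 0.0913) and Cdk2 had 0.29 after CAT-SKL (arrays at 0.47 and 0.12, adjusted p = 0.132, limma). As for Bok, the calls of Trib3 and Ccnd1 did not hold with the deposited ratios (adjusted p = 0.186 and 0.200, limma), with which 0% of all probes passed. They also did not hold when any 1 CAT-SKL, ADDL or ADDL+CAT-SKL array was left out. The call of Trib3 did not hold with median centring (-0.22, adjusted p = 0.157, limma).

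Markers of other cells differed between the same arrays. After CAT-SKL, 3 of 11 oligodendrocyte markers, 1 of 10 proliferation markers, 1 of 9 microglia markers and 0 of 11 astrocyte markers rose (limma, adjusted over all probes), against 0.636% of all probes. None of these calls held with the deposited ratios, with which 0% of all probes passed after CAT-SKL. At an unadjusted p of 0.05, 0 of 11 astrocyte markers were higher than vehicle after ADDL+CAT-SKL (7.72% of all probes), 7 after CAT-SKL+ADDL (5.09%), 7 after CAT-SKL (9.25%) and 11 after ADDL (9.3%). Median log2 ratios of 11 oligodendrocyte markers were 0.10 and -0.09 after ADDL+CAT-SKL, 0.60 and 0.63 after CAT-SKL+ADDL, 0.65 and 0.06 after CAT-SKL, and 0.26 and 0.17 after ADDL. Those of 10 proliferation markers were 0.35 and 0.09 after ADDL+CAT-SKL, 0.46 and 0.50 after CAT-SKL+ADDL, 0.42 and 0.13 after CAT-SKL, and 0.24 and 0.41 after ADDL. The 15 neuronal markers had medians between -0.09 and 0.05 on all 8 arrays, but single markers differed. Slc17a6, a glutamate transporter, passed as higher after ADDL+CAT-SKL (0.41, adjusted p = 0.0497, limma), where 0.158% of all probes rose. Gad1, an enzyme of GABA synthesis, passed as higher after CAT-SKL (0.56, adjusted p = 0.0452, limma), where 0.636% of all probes rose. Neither call held with the deposited ratios, with which 0% of all probes passed in either comparison. Of the 11 microglia markers, 8 were well above background in vehicle on all arrays, and Itgam and Ptprc on none. The part of these cells in the values of Ccnd1, Cdkn1c, Cdkn1a and the other genes was not tested.

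Genes whose ratios ran most like those of the brightest Cdkn1a probe over the 7 samples were C1qtnf4 (Pearson r = 0.971), Pou6f1 (0.960), Rp9 (0.954), Dnm2 (0.949) and Zbtb16 (0.943), the highest of 12943 genes. These are descriptions over few samples that share vehicle, and none of the 9 genes of the set is among the 5. The search read only the brightest probe of each gene. Over the member probes, r with this Cdkn1a probe ran from -0.529 for Bax to 0.904 for Bcl2l1 A_64_P008047. It was 0.798 for Bcl2 and 0.0828 for the other Cdkn1a probe.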

How the data were processed

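Expression was measured on 8 two-colour arrays. In the deposited scanner tables, per the file headers, each spot has a median intensity and a local background in both channels, flags of 0 or 1, and a log10 ratio of red over green. The authors obtained them with Agilent Feature Extraction 11.5, per the submitters' processing notes. From the intensities, background was corrected (normexp, offset 50) and arrays were normalised by loess with limma 3.58.1 in R 4.3.3. Control and outlier spots were not used, and replicate spots were averaged. Median signals replaced the planned mean signals, which the tables used here do not hold. A probe was tested if at least 2 of 8 arrays had it well above background in Cy5 or Cy3 (25296 probes). Symbols come from the GRCr8 RefSeq table through the accession (17998 probes with a symbol).

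Probes were tested on the log2 scale with lmFit and eBayes over all samples (3 residual and 5.07 prior degrees of freedom), with Benjamini-Hochberg adjustment over all probes and a threshold of 0.05. The plan of 8 samples became 7 once the CAT-SKL+ADDL arrays were found alike. Replicate numbers did not pair samples. Per other list, the 4 genes with the smallest p against vehicle and every gene that passed are named (1 gene of this rule is not reported here), and for likeness to Cdkn1a the 5 highest correlations. Members and lists were chosen with earlier results of these data known. The fit was tested on simulated data. Alternatives were median centring, the deposited log10 ratio converted to log2, no background correction, other filters, the brightest probe per gene, 8 samples, a replicate block and leaving out arrays.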

Additional observations from a re-analysis of the deposited data

How the results depend on the processing

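No member probe passed against vehicle with the deposited ratios, without background correction, with either other filter, with the brightest probe per gene, when any array was left out, or without both CAT-SKL+ADDL arrays (chosen after seeing the data). With the deposited ratios 0% of all probes passed in each comparison with vehicle, so that setting tells nothing about the members. With median centring 1 member probe passed after ADDL+CAT-SKL (Bcl2l1 A_64_P054735) and 1 after CAT-SKL (Bcl2l1 A_64_P008047, 0.32, adjusted p = 0.0366, limma), where 7.3% of all probes passed. With 8 samples 1 passed after ADDL+CAT-SKL, 1 after CAT-SKL+ADDL and 1 after ADDL, as given above. The replicate numbers did not pair the samples (r of deviations between -0.191 and 0.0678). With the replicate block 1 member passed after ADDL+CAT-SKL (Bcl2l1, adjusted p = 0.0341), 1 after CAT-SKL+ADDL (Cdkn1a, 0.0248) and 1 after ADDL (Gadd45a, 0.0377), by limma, with 1.88%, 8.67% and 2.74% of all probes passing. Between treatments no member passed under any alternative.

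All probes passing after ADDL+CAT-SKL numbered 75, against 0 to 883 under the alternatives, after CAT-SKL+ADDL 0 against 0 to 2525, after CAT-SKL 553 against 0 to 1939, and after ADDL 0 against 0 to 1016. The count after CAT-SKL was 2 without its first array. With 8 samples, the named list genes that also passed, each in the comparison of its smallest p, were Igfbp3 and Bcl2l2 after ADDL+CAT-SKL (adjusted p = 0.0159 and 0.0474), Cdkn1c and Bok after CAT-SKL+ADDL (0.00493 each), Mapk9 and Jun after CAT-SKL (0.0211 and 0.0230), and Gadd45g, Bnip3, Bnip3l and Ccne1 after ADDL (0.0261, 0.0243, 0.0247 and 0.0357), by limma. With median centring they were Bcl2l2 (0.0489), Cdkn1c (0.000773), Mapk9 (0.0205), Gadd45g (0.000839) and Bnip3 (0.0415), in the same comparisons. With probes above background in both channels on all arrays, Igfbp3 (0.0491), Mapk9 (0.0384) and Jun (0.0437) passed, and with the brightest probe per gene Mapk9 (0.0499). With the first or the second CAT-SKL array left out, Gadd45g, Bnip3 and Bnip3l (0.0163, 0.0418 and 0.0488) and Cdkn1c (0.0197) passed, and without the second one Mapk9, Jun and Cflar (0.0315, 0.0400 and 0.0460).

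Of the member probe values that lay more than 1 SE from 0, the sign changed 15 times, never past the threshold. With median centring, CAT-SKL+ADDL against vehicle gave 0.0375 for Bbc3 and 0.0054 for Gadd45a, and CAT-SKL against vehicle 0.0151 for Cdkn1a (A_64_P123895) and 0.000298 for Gadd45a. CAT-SKL+ADDL against ADDL then gave 0.0414 for Cdkn1a (A_44_P914438) and 0.104 and 0.0485 for Bcl2l1 (A_64_P054735 and A_64_P008047), and CAT-SKL against ADDL 0.0521 for Cdkn1a (A_64_P123895) and 0.0303 for Bcl2l1 (A_64_P054735). With the deposited ratios Cdkn1a (A_44_P914438) had 0.0343 after ADDL+CAT-SKL. The cause was not tested. Leaving out 1 array gave, against vehicle, -0.22 to 0.0045 for Cdkn1a A_64_P123895 and -0.30 to 0.0806 for A_44_P914438 after ADDL+CAT-SKL, -0.19 to 0.0249 for Gadd45a after CAT-SKL, and -0.0160 to 0.16 for Bbc3 after ADDL. Between ADDL+CAT-SKL and CAT-SKL+ADDL it gave -0.0077 to 0.37 for Cdkn1a A_44_P914438.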

Other observations

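The precision is limited by 2 arrays per treatment, 1 orientation of the dyes and a vehicle whose own spread is not measured. Bcl2l11 was at background. Median ratios of glial and proliferation markers differed between treatments and between the CAT-SKL arrays, though no marker passed in a comparison between treatments. The part of these cells in the member values was not tested. Results were measured as RNA, which does not show the amount or activity of the proteins.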
